A study of Mus musculus with 6 samples.

Results

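The CXC chemokine ligands described here were 9 of the 52550 genes in the deposited count table: Cxcl1, Cxcl2, Cxcl3, Cxcl5, Cxcl9, Cxcl10, Cxcl11, Cxcl14 and Cxcl16. They were found in the table by gene symbol, from a list written with earlier results of these data known, to set the interferon-induced ligands Cxcl9, Cxcl10 and Cxcl11 against the neutrophil-attracting ligands Cxcl1, Cxcl2, Cxcl3 and Cxcl5, with Cxcl14 and Cxcl16 as members of neither group. RNA-seq was performed on bone marrow-derived macrophages from MSR1 knockout (KO) and MSR1 wild-type (WT) mice, both of the C57BL/6 strain, with 3 libraries per genotype. MSR1 is a scavenger receptor of macrophages that takes up modified lipoproteins and microbial products. In both groups, bone marrow cells were grown for 7 days with 25 ng/ml M-CSF, the growth factor that drives macrophage differentiation, and were then kept for 48 h with bone marrow stem cells (BMSCs) across a transwell membrane. The KO was carried by the whole animal and was not limited to macrophages, and neither mouse age nor a macrophage culture without BMSCs was part of the labels. The comparison addressed what loss of MSR1 changes in macrophages that share medium with BMSCs.

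CXC chemokines are small secreted proteins that guide leukocytes through G protein-coupled receptors. Cxcl9, Cxcl10 and Cxcl11 are induced by interferons and draw activated T cells and NK cells through Cxcr3, whereas Cxcl1, Cxcl2, Cxcl3 and Cxcl5 are induced by inflammatory signals such as NF-κB and draw neutrophils through Cxcr2. Cxcl14 is made mainly by epithelial and stromal cells, and Cxcl16 is a membrane-anchored ligand of Cxcr6 that also binds oxidized lipoprotein, as MSR1 does.

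The 6 libraries held between 36143518 and 47417448 counts. Msr1 was at 2118, 1825 and 2000 counts in MSR1 KO against 7543, 9163 and 9219 counts in MSR1 WT, so the labels and the targeted gene pointed the same way and reads on Msr1 remained in the KO. Macrophage markers summed to 29825 to 31480 CPM (counts scaled to the library size) in MSR1 KO and 29542 to 32641 CPM in MSR1 WT libraries, led by Lyz2, Csf1r and Adgre1. Of the 13 rows of macrophage markers tested, 1 was higher (Fcgr1) and 1 was lower (Mrc1) in MSR1 KO at an edgeR adjusted p under 0.05. The higher call was lost without MSR1 KO replicate 1 or MSR1 WT replicate 1. The lower call was lost when any library but MSR1 WT replicate 3 was left out. At an unadjusted p under 0.05, 5 were higher and 2 lower, and DESeq2 called 3 higher and 1 lower at an adjusted p under 0.05. Stromal markers were detected as well, and their sums stood lower in the MSR1 KO libraries, as given beside Cxcl14. In bulk RNA, fewer cells of a type and less RNA per cell cannot be told apart.

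The genes of the interferon-induced and neutrophil-attracting ligands lie in 2 neighbouring stretches of chromosome 5. On GRCm38, the neutrophil-attracting genes follow each other on the plus strand from Cxcl5 (chr5:90759360-90761624) over Cxcl3 (chr5:90786103-90789600) and Cxcl1 (chr5:90891241-90893115) to Cxcl2 (chr5:90903871-90905938). The interferon-induced genes follow on the minus strand, with Cxcl9 at chr5:92321347-92328079, Cxcl10 at chr5:92346638-92348889 and Cxcl11 at chr5:92359544-92365485. Cxcl16 lies apart at chr11:70453983-70459984 and Cxcl14 at chr13:56288643-56296551, both on the minus strand.

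Promoters are shown for the 6 members found in the RefSeq table (build GRCm38.p6), since the interferon-induced and the neutrophil-attracting ligands are known for different promoter elements. Each run holds the 190 bases from 220 to 31 bases before the RefSeq start, read 5′ to 3′ on the strand of the gene. Capitals mark matches, on either strand, to the interferon-stimulated response element (TTTC, any 2 bases, TTTC), the gamma-activated site (TTCNNNGAA) or the NF-κB motif.
Cxcl10, chr5:92348920-92349109, minus strand: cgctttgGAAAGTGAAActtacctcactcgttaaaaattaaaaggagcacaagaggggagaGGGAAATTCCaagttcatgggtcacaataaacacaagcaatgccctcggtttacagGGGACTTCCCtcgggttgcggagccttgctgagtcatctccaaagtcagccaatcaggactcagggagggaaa
Cxcl9, chr5:92328110-92328299, minus strand: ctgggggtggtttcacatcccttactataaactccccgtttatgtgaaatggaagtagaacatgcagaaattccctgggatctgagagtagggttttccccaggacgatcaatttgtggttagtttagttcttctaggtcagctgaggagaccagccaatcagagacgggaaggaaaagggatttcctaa
Cxcl2, chr5:90903679-90903868, plus strand: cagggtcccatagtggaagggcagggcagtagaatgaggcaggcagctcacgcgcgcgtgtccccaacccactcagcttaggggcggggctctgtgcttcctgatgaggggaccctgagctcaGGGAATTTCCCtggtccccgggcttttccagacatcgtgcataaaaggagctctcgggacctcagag
Cxcl3, chr5:90785881-90786070, plus strand: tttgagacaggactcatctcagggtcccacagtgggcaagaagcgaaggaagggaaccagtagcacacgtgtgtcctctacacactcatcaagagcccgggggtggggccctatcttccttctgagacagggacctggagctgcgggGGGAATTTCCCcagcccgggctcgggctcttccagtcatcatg
Cxcl1, chr5:90891025-90891214, plus strand: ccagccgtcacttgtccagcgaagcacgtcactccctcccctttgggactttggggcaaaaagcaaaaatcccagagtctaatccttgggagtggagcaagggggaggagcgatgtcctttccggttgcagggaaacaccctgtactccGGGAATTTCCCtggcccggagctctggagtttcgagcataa
Cxcl14, chr13:56296582-56296771, minus strand: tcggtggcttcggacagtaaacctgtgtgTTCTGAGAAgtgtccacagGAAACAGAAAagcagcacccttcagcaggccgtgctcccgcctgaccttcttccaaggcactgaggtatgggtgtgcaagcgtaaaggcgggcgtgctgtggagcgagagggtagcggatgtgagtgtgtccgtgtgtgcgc
In the Cxcl10 window, the first run of capitals is an interferon-stimulated response element, written on the opposite strand, and the others are 2 NF-κB motifs. The windows of Cxcl1, Cxcl2 and Cxcl3 each held 1 NF-κB site, GGGAATTTCCC, which matches on both strands and is the same in all 3 genes, and they held no interferon motif. The Cxcl14 window held 1 gamma-activated site followed by 1 interferon-stimulated response element, and that of Cxcl9 held none of these letters in this stretch. Matches of different motifs did not overlap in these windows. Among 32851 RefSeq promoters of the same length, 2.2% held the interferon-stimulated response element, 5.29% the gamma-activated site and 3.02% the NF-κB motif. A match describes the letters only.

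Of the 9 members, 8 had enough counts for edgeR's quasi-likelihood test, which covered 16402 genes. Cxcl10 and Cxcl16 rose and Cxcl14 fell in MSR1 KO at an adjusted p under 0.05, which 4.91% of all tested genes passed (2.25% higher and 2.66% lower). The other 5 tested members, Cxcl9 and all 4 neutrophil-attracting ligands, passed in neither direction. By the study's definition of a changed gene (fold change above 1.5 and unadjusted p under 0.05), which 8.64% of all tested genes met (3.59% higher and 5.05% lower), Cxcl10 was higher, Cxcl14 was lower and no other member qualified. The median log2 fold change of the 8 tested members was -0.01, against 0.00 over all tested genes. In 3 members, the same that passed the adjusted threshold, the KO and WT libraries did not overlap in CPM, as in 25.5% of all tested genes.

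**Figure D1:**
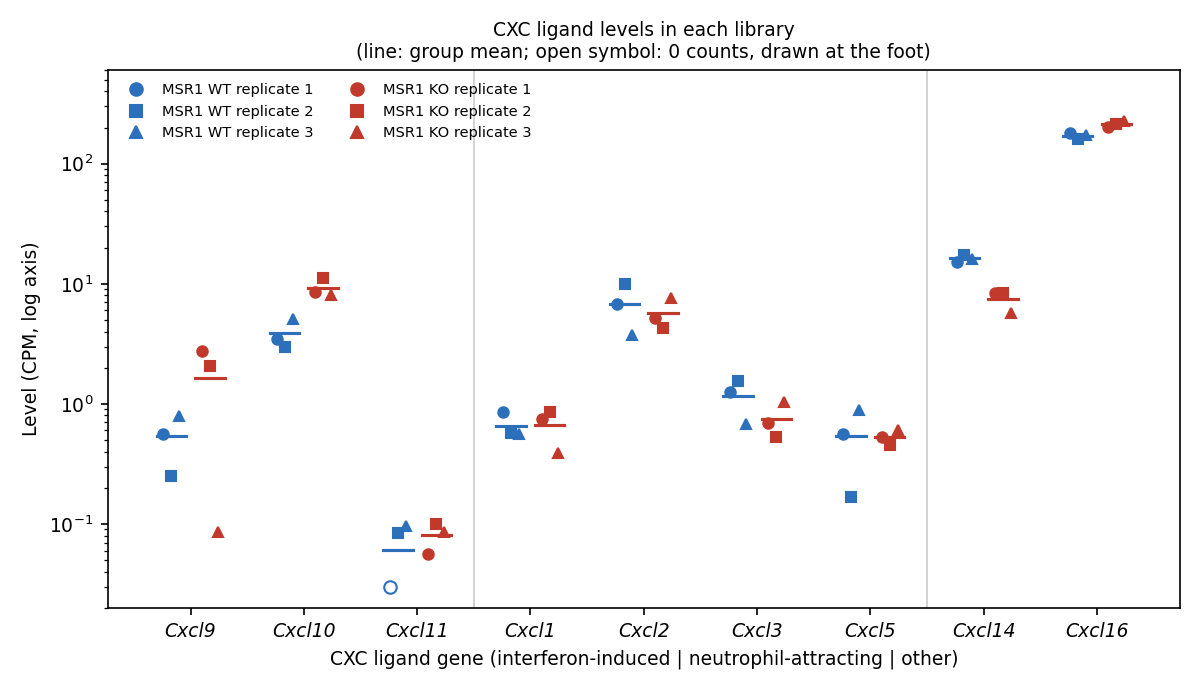
Level of each CXC ligand in each library, in CPM on a log axis, with a line at the mean of each group of 3 and an open symbol for 0 counts. Cxcl10 and Cxcl16 lie higher in all MSR1 KO libraries than in any MSR1 WT library, Cxcl14 lies lower in all of them, and MSR1 KO replicate 3 drops away from the other KO libraries in Cxcl9.

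Cxcl10 (ENSMUSG00000034855.13), the ligand of Cxcr3 that most cells make under type I or type II interferon, had 307, 445 and 376 counts in MSR1 KO against 143, 141 and 212 counts in MSR1 WT. Every KO library stood above every WT library after scaling, and MSR1 WT replicate 3 was the highest of its group. The mean level was 9.27 ± 1.67 CPM (SD, n = 3) in MSR1 KO against 3.86 ± 1.13 CPM (SD, n = 3) in MSR1 WT. Cxcl10 was thus 2.41-fold higher in MSR1 KO, with a log2 fold change of 1.27 ± 0.24 (standard error, edgeR adjusted p = 0.027). Leaving out a library kept the log2 fold change between 1.11 and 1.53. The adjusted p then passed 0.05 only without MSR1 WT replicate 3 (0.011) and ranged from 0.054 to 0.118 when one of the other 5 libraries was left out.

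Cxcl9 (ENSMUSG00000029417.9), which macrophages make chiefly under interferon gamma, had 99, 83 and 4 counts in MSR1 KO against 23, 12 and 33 counts in MSR1 WT. MSR1 KO replicates 1 and 2 stood above every WT library, and MSR1 KO replicate 3 stood below every WT library, so the groups overlapped. At 4 counts, the level in MSR1 KO replicate 3 was 0.0861 CPM, with an exact Poisson 95% interval of 0.0234 to 0.22 CPM that lay under the 1.66 to 2.58 CPM of MSR1 KO replicate 2 and overlapped the 0.131 to 0.442 CPM of MSR1 WT replicate 2. These intervals cover counting error only. The means were 1.64 ± 1.39 CPM (SD, n = 3) in MSR1 KO against 0.537 ± 0.274 CPM (SD, n = 3) in MSR1 WT. The log2 fold change was 1.61, larger than that of Cxcl10, but its standard error was 0.94 and it did not pass (edgeR adjusted p = 0.42). Without MSR1 KO replicate 3 it was 2.18 with a standard error of 0.49 (edgeR adjusted p = 0.071), a size that meets the study's definition.

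Cxcl11, the third Cxcr3 ligand, was close to absent, with 2, 4 and 4 counts in MSR1 KO against 0, 4 and 4 counts in MSR1 WT. It fell under the filter on low counts and was not tested, and a count of 0 here allows up to 3 counts, or 0.0728 CPM, in MSR1 WT replicate 1. GENCODE lists the mouse gene as a polymorphic pseudogene, meaning that its reading frame is broken in the reference genome and intact in some strains. A difference between the groups was not detectable at this depth. Of its exon bases, 41.7% overlap Gm2673 on the opposite strand, which was listed at 0 counts in all 6 libraries.

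The 4 neutrophil-attracting ligands gave no call in either direction by edgeR, by DESeq2 or at an unadjusted p under 0.05. Cxcl2, the most abundant of them, had 188, 170 and 353 counts in MSR1 KO against 277, 472 and 155 counts in MSR1 WT. The groups overlapped across their whole width, with the lowest level in MSR1 WT replicate 3 and the highest in MSR1 WT replicate 2. The means were 5.70 ± 1.71 CPM (SD, n = 3) in MSR1 KO against 6.81 ± 3.10 CPM (SD, n = 3) in MSR1 WT, a log2 fold change of -0.26 ± 0.35 (standard error, edgeR adjusted p = 0.77).

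Cxcl3, a close relative of Cxcl2 with the same receptor, had 25, 21 and 48 counts in MSR1 KO against 52, 73 and 28 counts in MSR1 WT. Its libraries stood in nearly the same order as those of Cxcl2, with MSR1 WT replicate 2 highest and MSR1 KO replicate 3 highest within its group. The log2 fold change was -0.62 ± 0.44 (standard error, edgeR adjusted p = 0.51). Of the 50-base words in the exons of Cxcl2, 5.84% also occur in Cxcl3, so a small part of their reads could have been assigned to either gene.

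Cxcl1, the mouse counterpart of human GRO alpha, had 27, 34 and 18 counts in MSR1 KO against 35, 27 and 23 counts in MSR1 WT. Its means were nearly equal, at 0.664 ± 0.245 CPM (SD, n = 3) in MSR1 KO against 0.658 ± 0.165 CPM (SD, n = 3) in MSR1 WT, and its log2 fold change was 0.01 with a standard error of 0.46. Cxcl5, an epithelial and stromal chemokine in many tissues, had 19, 18 and 28 counts in MSR1 KO against 23, 8 and 37 counts in MSR1 WT. The WT libraries were the more widely spread, and both their lowest and their highest value lay outside the range of the KO libraries. Its log2 fold change was -0.02 with a standard error of 0.61. Standard errors of this size do not show that the levels of Cxcl1 and Cxcl5 were equal.

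**Figure D2:**
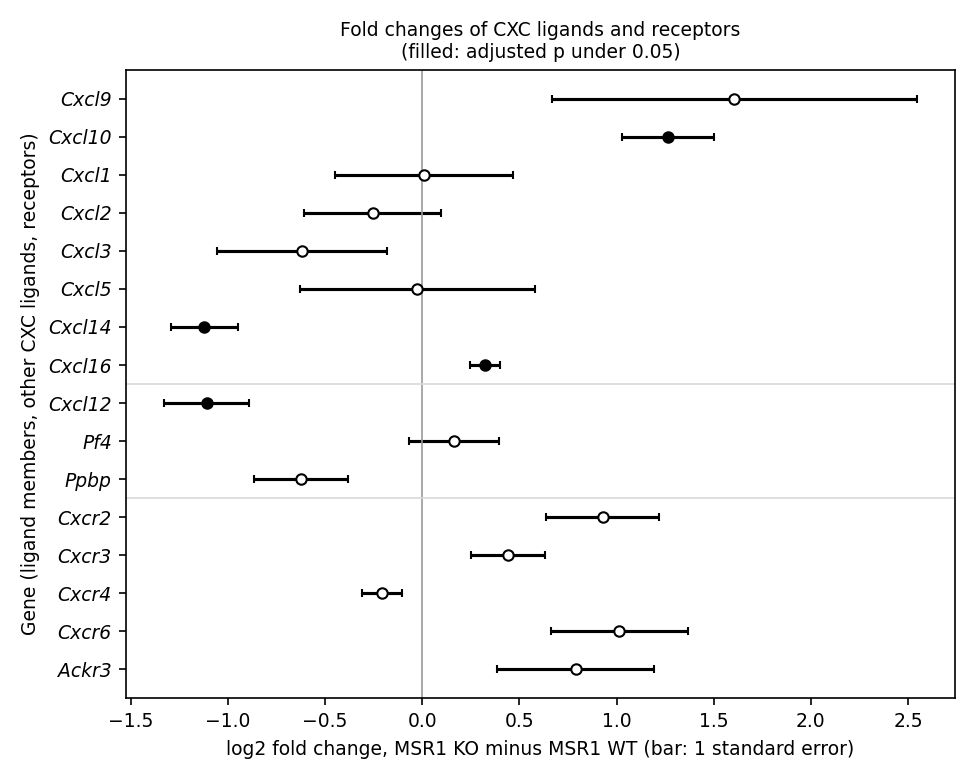
Log2 fold change (MSR1 KO minus MSR1 WT) with 1 standard error for the 8 tested members, the 3 other tested CXC ligands and the 5 tested CXC receptors, with filled points at an adjusted p under 0.05. The filled points are Cxcl10 and Cxcl16 to the right of 0 and Cxcl14 and Cxcl12 to the left, and the widest bar belongs to Cxcl9.

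Set against each other as sums, the balance lay with the interferon-induced ligands in MSR1 KO replicates 1 and 2 and with the neutrophil-attracting ligands in MSR1 WT replicates 1 and 2, while replicate 3 of both genotypes lay near equal sums. Cxcl9, Cxcl10 and Cxcl11 together came to 11.4, 13.4 and 8.26 CPM in MSR1 KO and to 4.03, 3.31 and 6.03 CPM in MSR1 WT, so that all KO sums lay above all WT sums. Cxcl1, Cxcl2, Cxcl3 and Cxcl5 together came to 7.21, 6.10 and 9.62 CPM in MSR1 KO and to 9.39, 12.2 and 5.88 CPM in MSR1 WT. The ratio of the first sum to the second was 1.58, 2.19 and 0.859 in MSR1 KO and 0.429, 0.271 and 1.02 in MSR1 WT libraries. The ratios of the groups overlapped, because MSR1 KO replicate 3 fell under MSR1 WT replicate 3. Within each genotype, the library with more of the interferon-induced ligands had less of the neutrophil-attracting ones, in all 3 libraries of both groups. The ratio of Cxcl10 to Cxcl2 alone, each the most abundant ligand of its group, was 1.63, 2.62 and 1.07 in MSR1 KO and 0.516, 0.299 and 1.37 in MSR1 WT libraries, with the same overlap. No test was run on these sums and ratios, since the members were chosen with earlier results known.

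**Figure D3:**
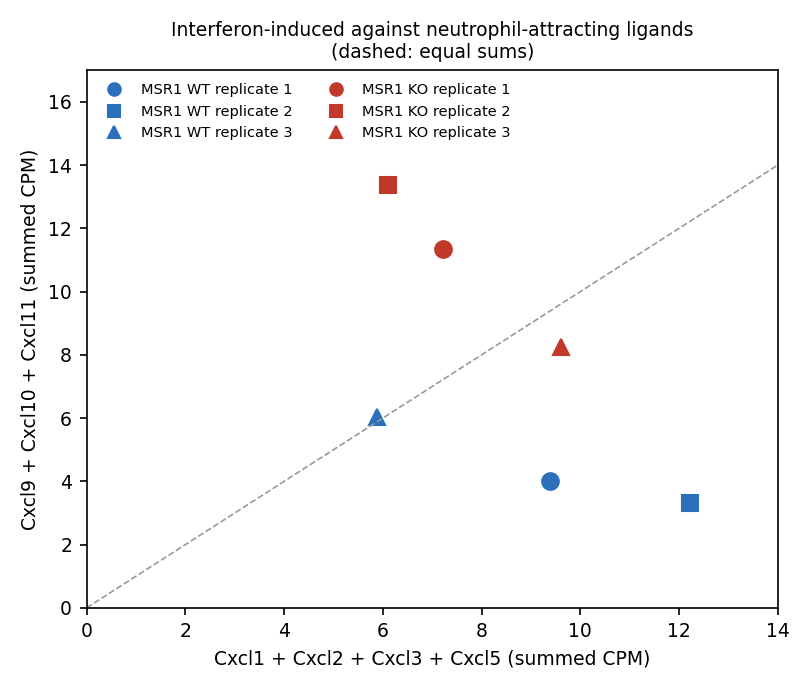
Summed CPM of Cxcl9, Cxcl10 and Cxcl11 (vertical) against summed CPM of Cxcl1, Cxcl2, Cxcl3 and Cxcl5 (horizontal), with 1 point per library and a dashed line of equal sums. MSR1 KO replicates 1 and 2 lie well above the line and MSR1 WT replicates 1 and 2 well below it, while replicate 3 of both genotypes lies near it.

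Cxcl14 (ENSMUSG00000021508.11), a chemokine of epithelial and stromal tissue, had 303, 334 and 264 counts in MSR1 KO against 631, 829 and 665 counts in MSR1 WT. All KO libraries stood below all WT libraries, and the spread within each group was small beside the gap. The means were 7.50 ± 1.58 CPM (SD, n = 3) in MSR1 KO against 16.3 ± 1.10 CPM (SD, n = 3) in MSR1 WT, so that Cxcl14 was 2.17-fold higher in MSR1 WT. Its log2 fold change was -1.12 ± 0.17 (standard error, edgeR adjusted p = 0.018). It stayed between -1.21 and -0.95 whichever library was left out, and the adjusted p rose above 0.05 without MSR1 KO replicate 1 (0.053), MSR1 WT replicate 1 (0.068) or MSR1 WT replicate 2 (0.060).

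Part of the stromal markers fell in MSR1 KO, as Cxcl14 did. Of the 15 stromal markers, all tested, 6 were lower and 0 were higher in MSR1 KO at an adjusted p under 0.05 (1 at an unadjusted p under 0.05 and 1 by DESeq2 were higher), and none was at 0 in any library. Leaving out a library moved the 6 to between 0 (without MSR1 WT replicate 1) and 8 (without MSR1 KO replicate 2), with 1 left when MSR1 KO replicate 1 was dropped and 3 when MSR1 KO replicate 3 was. Their sum was 2068 to 2693.5 CPM in MSR1 KO and 2974 to 3721 CPM in MSR1 WT libraries, and its most abundant genes were Col1a2, Acta2 and Col1a1, which encode matrix collagen and smooth muscle actin. Per 1000 CPM of stromal markers, Cxcl14 was at 4.08, 3.11 and 2.63 CPM in MSR1 KO and at 4.11, 5.87 and 4.94 CPM in MSR1 WT libraries. These ranges did not overlap, but MSR1 KO replicate 1 and MSR1 WT replicate 1 were nearly equal. The part of stromal RNA in the difference was not tested.

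**Figure D4:**
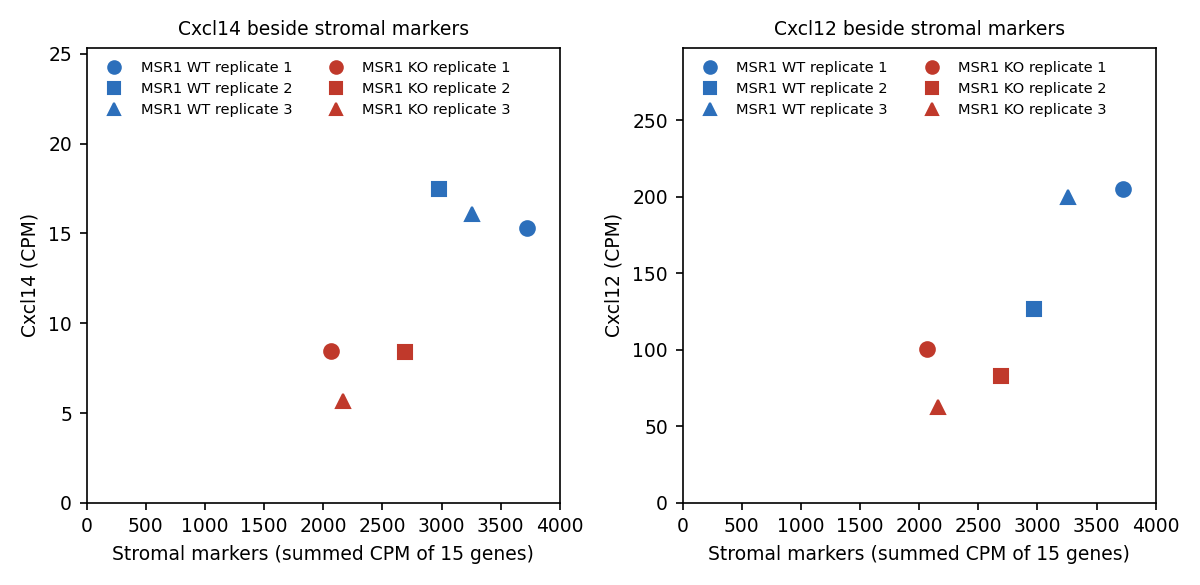
CPM of Cxcl14 (left) and Cxcl12 (right) against the summed CPM of 15 stromal markers, with 1 point per library and both axes from 0. The 3 MSR1 KO libraries lie lower than the 3 MSR1 WT libraries on both axes in both panels.

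Cxcl16 (ENSMUSG00000018920.11), the ligand of Cxcr6 and a scavenger receptor in its own right, was the most abundant member by far. It had 7273, 8498 and 10462 counts in MSR1 KO against 7405, 7580 and 7149 counts in MSR1 WT. After scaling, these were 202.5, 213.5 and 225.1 CPM in MSR1 KO and 179.6, 159.8 and 173.1 CPM in MSR1 WT, with all KO libraries above all WT libraries. The difference was small, at 1.25-fold, and at 0.32 ± 0.075 (standard error) its log2 fold change lay just inside the threshold (edgeR adjusted p = 0.0497). The call was lost whichever library was left out (adjusted p 0.087 to 0.179), with library size alone as the scaling (0.059) and with no filter on low counts (0.073), while the log2 fold change stayed between 0.28 and 0.37. Per 1000 CPM of macrophage markers, Cxcl16 was at 6.58, 7.16 and 7.15 CPM in MSR1 KO and at 5.50, 5.07 and 5.86 CPM in MSR1 WT libraries, again without overlap. Its exons share 18.3% of their bases with Zmynd15 on the opposite strand, so that reads there cannot be told apart without strand. Zmynd15 had 2902, 3131 and 3816 counts in MSR1 KO against 2134, 2934 and 2858 counts in MSR1 WT, a log2 fold change of 0.40 (edgeR adjusted p = 0.078).

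Levels between genes were compared per length, as counts scaled to exon length in kilobases (without retained introns) and to library size (RPKM). In MSR1 KO libraries, Cxcl16 stood at 79.2 ± 4.19 RPKM, followed by Cxcl10 at 6.10 ± 1.10, Cxcl14 at 4.11 ± 0.864 and Cxcl2 at 3.07 ± 0.920 (mean ± SD, n = 3). Below these came Cxcl3 at 0.740 ± 0.253, Cxcl1 at 0.697 ± 0.257, Cxcl9 at 0.569 ± 0.481, Cxcl5 at 0.335 ± 0.0477 and Cxcl11 at 0.0213 ± 0.00603 RPKM (n = 3). Within the KO order, the library ranges of Cxcl14 and Cxcl2 overlapped, as did those of Cxcl3 and Cxcl1, of Cxcl1 and Cxcl9, and of Cxcl9 and Cxcl5. In MSR1 WT libraries the order was Cxcl16 at 63.3 ± 3.75, Cxcl14 at 8.92 ± 0.600, Cxcl2 at 3.66 ± 1.67 and Cxcl10 at 2.54 ± 0.744 RPKM (n = 3). These were followed by Cxcl3 at 1.14 ± 0.433, Cxcl1 at 0.691 ± 0.173, Cxcl5 at 0.343 ± 0.231, Cxcl9 at 0.186 ± 0.0947 and Cxcl11 at 0.0159 ± 0.0139 RPKM (n = 3). In that order the ranges of Cxcl2 and Cxcl10, of Cxcl3 and Cxcl1, and of Cxcl5 and Cxcl9 overlapped. The order of the low members depended on the length used. Over all exon bases, the MSR1 KO means were 0.545 for Cxcl9, 0.354 for Cxcl1, 0.283 for Cxcl5 and 0.215 RPKM for Cxcl3. The MSR1 WT means were then 0.351 for Cxcl1, 0.331 for Cxcl3, 0.290 for Cxcl5 and 0.178 RPKM for Cxcl9. With retained introns left out of the length, Cxcl10 stood above Cxcl14 in all MSR1 KO libraries and below it in all MSR1 WT libraries. With all exon bases as the length, Cxcl10 stood below Cxcl14 in MSR1 KO replicate 1 as well (3.8 against 4.6 RPKM). The order in MSR1 KO replicates 2 and 3 and in the MSR1 WT libraries stayed the same. Cxcl16 made up 82.6% to 85.3% of the summed RPKM of the 9 members in MSR1 KO and 75.5% to 79.7% in MSR1 WT libraries.

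The pattern of Cxcl10 over the 6 libraries was followed closely by several other genes. Likeness was the root-mean-square difference of log2 CPM, each gene centred on its mean, among 13610 tested genes averaging 1 CPM or more, and the SD of Cxcl10 itself was 0.695 on this scale. The 5 most alike were Tap1 (0.084), the peptide transporter that loads MHC class I, then H2-T23 (0.087), Stat2 (0.087), H2-T22 (0.106) and Fcgr1 (0.109). H2-T23 and H2-T22 encode non-classical MHC class I molecules, Stat2 is a transcription factor of type I interferon, and Fcgr1 is the high-affinity IgG receptor. Tap1 had 8373, 13474 and 10291 counts in MSR1 KO against 4055, 4553 and 6384 counts in MSR1 WT. In both Cxcl10 and Tap1, MSR1 KO replicate 2 was highest and MSR1 WT replicate 3 was highest of its group. These genes were picked for their likeness over the same libraries, so their own fold changes add nothing independent.

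**Figure D5:**
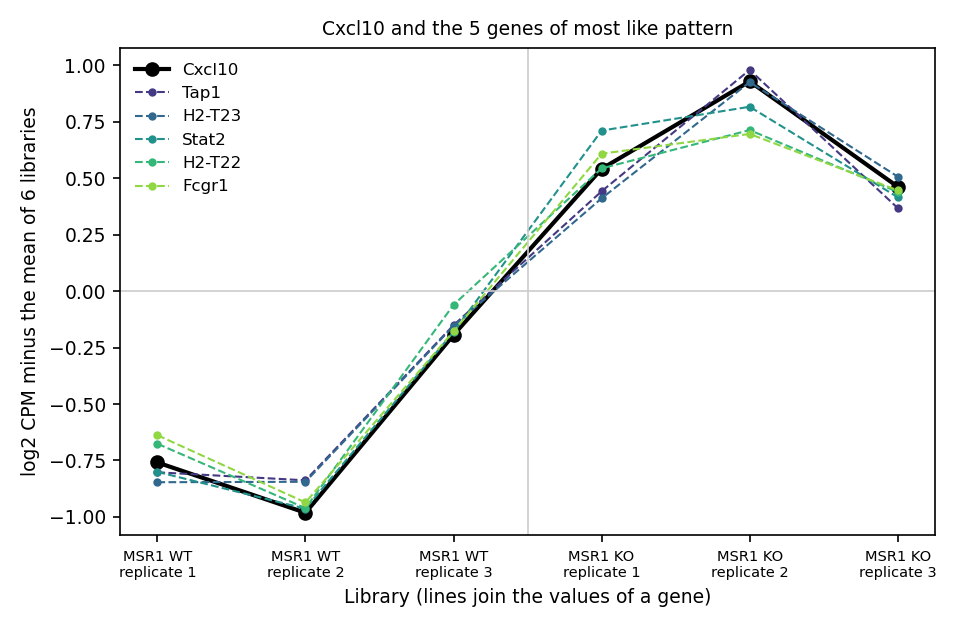
Log2 CPM minus the mean of 6 libraries for Cxcl10 (black) and the 5 tested genes of most like pattern, with lines joining the values of a gene. All 6 genes are lowest in MSR1 WT replicate 1 or 2, near the middle in MSR1 WT replicate 3 and highest in the MSR1 KO libraries, with the peak in MSR1 KO replicate 2.

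No gene followed Cxcl9 as closely. Its SD was 1.52, and the most alike gene, Gm42878, still differed by 0.737, ahead of Mfsd4a at 0.812, Gnal at 0.897, Zfp773 at 0.952 and Tceanc at 0.976. Mfsd4a, a transporter-like membrane protein, had 248, 286 and 43 counts in MSR1 KO against 34, 47 and 48 counts in MSR1 WT, with the same drop in MSR1 KO replicate 3. Cxcl16, whose SD was 0.175, was most like Hcls1 (0.0327), Npc2 (0.0331), Rhog (0.0359), Bmi1 (0.036) and Rnaset2b (0.0377). Npc2 carries cholesterol out of lysosomes, and it had 44839, 49534 and 60060 counts in MSR1 KO against 43713, 43906 and 41805 counts in MSR1 WT. For Cxcl2, whose SD was 0.481, among the most alike were Ska1 (0.177), Gm26621 (0.19), Opn3 (0.203) and Gm16062 (0.212).

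Part of the interferon signalling genes rose beside Cxcl10. Of 20 genes listed, 18 were tested, 6 were higher and 0 were lower in MSR1 KO at an adjusted p under 0.05 (1 was lower at an unadjusted p under 0.05 and 0 by DESeq2), and the median log2 fold change was 0.28. Among those with the smallest p were Stat2 (log2 fold change 1.27, adjusted p = 0.019), Irf7 (1.35, 0.025), Irf2 (0.50, 0.032) and Irf9 (0.48, 0.035, all from edgeR). Stat2 and Irf9 are part of the complex that binds the interferon-stimulated response element. Stat2 had 9932, 11844 and 10474 counts in MSR1 KO against 3997, 4108 and 6155 counts in MSR1 WT, so that its groups did not overlap, and as in Cxcl10 the highest library was MSR1 KO replicate 2. Stat2 was among the genes most like Cxcl10 over these libraries, so this shared order adds nothing independent. The interferon genes themselves, named after their values were seen, were near 0, with Ifng at 0, 0 and 0 counts in MSR1 KO and 4, 0 and 0 counts in MSR1 WT libraries. Ifnb1 had 8, 6 and 0 counts in MSR1 KO against 0, 0 and 4 counts in MSR1 WT. The number of genes called higher depended on the libraries, with 0 left when MSR1 KO replicate 1 or MSR1 WT replicate 1 was dropped, 1 when MSR1 WT replicate 2 was, 2 when MSR1 KO replicate 2 was, 4 when MSR1 KO replicate 3 was and 6 when MSR1 WT replicate 3 was.

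Markers of T cells and NK cells, the cells that Cxcr3 ligands draw, stood higher in sum in all MSR1 KO libraries. Their summed level was 46.5 to 60.6 CPM in MSR1 KO and 10.3 to 29.0 CPM in MSR1 WT libraries, and edgeR called 2 of 7 tested markers higher and 0 lower. At an unadjusted p under 0.05, 4 were higher and 0 lower, and DESeq2 called 3 higher and 0 lower. The most abundant were Gzmb (log2 fold change 1.90, edgeR adjusted p = 0.020), Klrb1c (1.39, adjusted p = 0.028) and Ncr1 (0.71, adjusted p = 0.39), all genes of NK cells. The T cell markers, named after their values were seen, were low. Cd3d had 5, 0 and 19 counts in MSR1 KO against 0, 0 and 15 counts in MSR1 WT, and Cd3e had 0, 0 and 9 against 0, 4 and 8 counts. Trac had 27, 24 and 47 counts in MSR1 KO against 13, 15 and 19 counts in MSR1 WT, without overlap in CPM, and was higher by the study's definition but not at an adjusted p under 0.05 (log2 fold change 1.11, edgeR adjusted p = 0.213). Cd3g, at 8, 6 and 24 against 8, 12 and 29 counts, did not pass either. The 2 calls fell to 0 without MSR1 KO replicate 1, MSR1 KO replicate 3 or MSR1 WT replicate 1 and to 1 without MSR1 KO replicate 2 or MSR1 WT replicate 2, and rose to 3 without MSR1 WT replicate 3. Whether RNA or interferon of such cells has a part in Cxcl10 or Cxcl9 was not tested.

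Genes of the NF-κB and inflammatory response, which the neutrophil-attracting ligands follow in textbook accounts, gave few calls. Of 20 genes listed, 19 were tested and 2 were higher, Myd88 (log2 fold change 0.45, edgeR adjusted p = 0.029) and Zfp36 (0.41, edgeR adjusted p = 0.034). Myd88 is the adaptor of Toll-like receptors, and Zfp36 binds and destabilizes messenger RNA of cytokines. None was lower at an adjusted p under 0.05 by edgeR or DESeq2. At an unadjusted p under 0.05, 4 were higher (Myd88, Zfp36, Bcl3 and Rel) and 1 was lower. The lower gene was Tlr4, the receptor of lipopolysaccharide, with a log2 fold change of -1.57 (edgeR adjusted p = 0.115). Bcl3 (0.30) and Rel (0.26) did not pass the adjusted threshold, and the list had a median of 0.05 on the log2 scale. Both calls were lost when any MSR1 KO library, MSR1 WT replicate 1 or MSR1 WT replicate 2 was left out, and in the last case there was 1 lower call.

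The receptors of these ligands gave no call by edgeR at an adjusted p under 0.05, with 5 of 8 tested. At an unadjusted p under 0.05, 3 were higher and 0 were lower, DESeq2 called 2 higher and 0 lower at an adjusted p under 0.05, and edgeR called 1 higher without MSR1 WT replicate 3. Cxcr3, the receptor of the interferon-induced ligands, had 417, 373 and 532 counts in MSR1 KO against 292, 317 and 418 counts in MSR1 WT (log2 fold change 0.44, edgeR adjusted p = 0.255). Cxcr2, the receptor of the neutrophil-attracting ligands, had 531, 275 and 384 counts in MSR1 KO against 256, 249 and 176 counts in MSR1 WT (0.93, edgeR adjusted p = 0.126). Its groups did not overlap in CPM, and MSR1 KO replicate 1 was the highest library. Cxcr6, the receptor of Cxcl16, had 190, 260 and 334 counts in MSR1 KO against 118, 80 and 202 counts in MSR1 WT (1.01, edgeR adjusted p = 0.16), also without overlap in CPM. Neutrophil markers, led by Csf3r, Ngp and S100a9, summed to 929.5 to 1336 CPM in MSR1 KO and 648.1 to 1043 CPM in MSR1 WT libraries. Of the 10 neutrophil markers, edgeR called 0, with 3 higher and 0 lower at an unadjusted p under 0.05 and 2 higher by DESeq2. Cxcr4, the receptor of Cxcl12, was at -0.21 on the log2 scale (adjusted p = 0.32) and Ackr3, which scavenges Cxcl11 and Cxcl12, at 0.79 (adjusted p = 0.34, both from edgeR). Cxcr1, Cxcr5 and Ackr1 had at most 8 counts in any library and were not tested.

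The other 6 CXC ligands of the table set the members in their family. Cxcl12, the stromal ligand of Cxcr4, had 3618, 3303 and 2904 counts in MSR1 KO against 8452, 5992 and 8265 counts in MSR1 WT. It fell like Cxcl14, with no overlap between the groups and a log2 fold change of -1.11 ± 0.22 (standard error, edgeR adjusted p = 0.031). This call held without MSR1 WT replicate 2 and was lost when any other library was left out. Per 1000 CPM of stromal markers, Cxcl12 was at 48.7, 30.8 and 28.9 CPM in MSR1 KO and at 55.1, 42.5 and 61.5 CPM in MSR1 WT libraries, where the groups overlapped. Pf4, platelet factor 4, held 83.6% to 91.2% of the summed RPKM of all 15 CXC ligands in every library and did not pass, at a log2 fold change of 0.16 (edgeR adjusted p = 0.775). Ppbp, another ligand of platelets that signals through Cxcr2, had 251, 155 and 297 counts in MSR1 KO against 321, 510 and 333 counts in MSR1 WT (-0.62, edgeR adjusted p = 0.21). Its groups did not overlap in CPM, and Ppbp was lower by the study's definition but not at an adjusted p under 0.05. Markers of platelets, summed, were at 22.3 to 28.7 CPM in MSR1 KO and 18.9 to 23.4 CPM in MSR1 WT libraries. Itgb3 made up most of each sum, at 16.9, 22.5 and 17.5 CPM in MSR1 KO and 12.2, 11.8 and 17.1 CPM in MSR1 WT. None of the 5 tested passed by edgeR or DESeq2, and 1, Itgb3, was higher at an unadjusted p under 0.05. By log2 fold change, 3 of the 5 were positive and 2 were negative. The 1 tested marker without overlap in CPM was Gp1ba, which stood lower in MSR1 KO. Cxcl13 and Cxcl15 were listed at 0 in all 6 libraries, and Cxcl17 had at most 4 counts.

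Enzymes that cut or modify CXC ligands differed in both directions. Of 12 tested, 1 was higher and 3 were lower in MSR1 KO at an edgeR adjusted p under 0.05. At an unadjusted p under 0.05, 1 was higher and 7 were lower, and the list had a median of -0.35 on the log2 scale. Dpp4, which trims the interferon-induced ligands at their amino end, had 295, 398 and 455 counts in MSR1 KO against 164, 83 and 138 counts in MSR1 WT, without overlap (log2 fold change 1.63, edgeR adjusted p = 0.024). Mmp12, the macrophage elastase, had 5602, 5755 and 7232 counts in MSR1 KO against 26774, 33219 and 38134 counts in MSR1 WT (-2.32, edgeR adjusted p = 0.00045). Anpep (-0.82, adjusted p = 0.014), an aminopeptidase, and Ctsl (-0.52, adjusted p = 0.031), a lysosomal protease, fell as well by edgeR. Padi4, which citrullinates chemokines, did not pass, at -0.38 on the log2 scale (edgeR adjusted p = 0.109). Adam10 and Adam17, named after their values were seen since they release Cxcl16 from the membrane, were at log2 fold changes of 0.02 (adjusted p = 0.93) and 0.38 (adjusted p = 0.29, both from edgeR). The call of Dpp4 was lost without MSR1 KO replicate 1, MSR1 KO replicate 2 or MSR1 WT replicate 1, and the 3 lower calls were 1 without MSR1 WT replicate 1 and 2 without MSR1 KO replicate 1 or 2 or MSR1 WT replicate 2 or 3.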

How the data were processed

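Total RNA of macrophages was sequenced in 6 libraries, 3 of MSR1 KO and 3 of MSR1 WT mice. The paper's methods name TopHat, whereas the submitters' processing notes list fastp 0.17.1, HISAT2 2.1.0, DESeq2 1.18.1 and R 3.4.3; the counting program, strand setting and build are not given in the sources used here. The authors deposited raw counts per gene, which were used here. The deposited signal columns, which hold size-factor-normalized counts, were not used, nor were the log2 fold changes and the raw and adjusted p-values of the comparison the authors made. All value columns were mapped to a sample (0 left out).

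Counts were filtered (filterByExpr), scaled by TMM and tested with glmQLFTest of edgeR 4.0.16 in R 4.3.3, without the replicate number, and p was adjusted by Benjamini-Hochberg over 16402 tested genes; p-values measure the spread between these libraries. CPM use the TMM-scaled library size. Fits were tested on simulated data. Positions come from GENCODE M21 (GRCm38), where 49035 of 52550 identifiers had the same start and end. Intervals and the limit of 3 counts for a 0 cover counting error only. The members and gene lists were chosen with earlier results of these data known. Genes named were all members, other CXC ligands and receptors, Msr1, up to 5 per list by smallest p, the 3 most abundant of each marker list and the 5 genes of most like pattern; genes that overlap a member were added, others are marked, and 2 genes of this rule are not reported here. Same-numbered KO and WT libraries did not deviate together (correlation over genes -0.03, 0.02 and 0.00), so the numbers were not taken as pairs. Alternatives were DESeq2 1.42.0, its size factors, scaling by library size only, dropping the filter, at least 10 counts in every library, a replicate block and each library left out.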

Additional observations from a re-analysis of the deposited data

How the results depend on the processing

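The 2 CXC ligands called higher at an adjusted p under 0.05 were 1 with library size alone and 1 with no filter on low counts, and 0 to 1 when a library was left out, where the 1 came without MSR1 WT replicate 3. The 1 called lower was 0 to 1 when a library was left out. With the replicate number as a block, which takes residual degrees of freedom, 0 members were called higher and 0 lower, the adjusted p was 0.081 for Cxcl10, 0.051 for Cxcl14 and 0.121 for Cxcl16, and 59 genes were higher and 78 lower over all tested genes instead of 369 and 436. By the study's definition, the 1 higher member became 2 without MSR1 KO replicate 3 (range 1 to 2), and the 1 lower member stayed under every alternative. Over all tested genes, DESeq2 called 727 higher and 850 lower, no filter gave 237 and 288, and leaving out a library gave 18 to 407 and 53 to 372. DESeq2 called 10 interferon signalling genes higher.

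The sign changed only in ligands that passed no test: Cxcl1 was -0.020 with library size alone, -0.028 with the replicate block and -0.22 to 0.29 with a library left out, Cxcl2 was 0.12 without MSR1 WT replicate 2 (range -0.55 to 0.12), and Cxcl5 was 0.18 with the replicate block and -0.46 to 0.55 with a library left out. The cause was not tested. The log2 fold changes of Cxcl9, Cxcl10, Cxcl3, Cxcl14 and Cxcl16 kept their sign under every alternative that gave a value; requiring at least 10 counts in every library left none for Cxcl9 and Cxcl5. Library size alone set the median of all genes at -0.03. Depth limits Cxcl11 and, below 40 counts per library, Cxcl1 and Cxcl5.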

Other observations

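Endothelial and dendritic cells can also make CXC ligands, and their markers were read in the same way. The 8 endothelial markers, led by Pecam1, Cdh5 and Emcn, summed to 116.6 to 142.4 CPM in MSR1 KO and 81.2 to 117.7 CPM in MSR1 WT libraries. Pecam1, an adhesion molecule that leukocytes also carry, was the 1 marker called higher by edgeR (log2 fold change 0.72, adjusted p = 0.027), and that list had 0 calls when any MSR1 KO library or MSR1 WT replicate 1 or 2 was left out and 2 without MSR1 WT replicate 3. Vwf, named after its values were seen, had 152, 122 and 104 counts in MSR1 KO against 215, 516 and 341 counts in MSR1 WT (-1.36, adjusted p = 0.051 from edgeR). The endothelial list had 0 lower calls by edgeR, and 1 by each of DESeq2, edgeR with library size alone and edgeR with at least 10 counts in every library, and 1 marker was lower at an unadjusted p under 0.05. The dendritic markers summed to 4.84 to 6.25 CPM in MSR1 KO and 3.10 to 5.83 CPM in MSR1 WT libraries, and edgeR called 0 of 7, with 2 higher at an unadjusted p under 0.05 and 1 by DESeq2.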
